A study of Mus musculus with 8 samples.

Results

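The genes described here encode mitochondrial ribosomal proteins, taken as all symbols that begin with Mrpl or Mrps followed by a number, with an optional last letter, and that had at least 10 counts in at least 4 libraries of the exonic count table. The pattern matched 78 of 55471 genes, and 77 met the count minimum. All 77 had at least 10 counts in all 8 libraries, the lowest being 46. Mrpl53 was the gene left out, listed at 0 counts in every library. Of the members, 50 encode proteins of the large subunit and 26 of the small subunit. Mrps36 carries the name of the family but is known as a component of the alpha-ketoglutarate dehydrogenase complex. Mrps30 and Mrps18a, named for the small subunit, are counted with the large one, where structures place them.

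Mitochondria keep their own ribosome, which translates the few messages of the mitochondrial genome, all for subunits of the respiratory chain and ATP synthase. Its ribosomal RNAs are made inside the organelle, while every protein of it is encoded in the nucleus, translated in the cytosol and imported. Some of these proteins have bacterial counterparts and bind the ribosomal RNA core, and the rest were added in mitochondria. Neurons depend on respiration for firing and for the recovery of ion gradients.

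Nuclear polyadenylated RNA had been sequenced from forebrain excitatory neurons of male C57BL/6J mice, genotype CaMKIIalpha-Cre:SUN1-sfGFP and 6 to 8 weeks old, in 8 samples. The Cre, driven by the CaMKIIalpha promoter, switches on a GFP-tagged protein of the nuclear envelope. Antibody-coated beads then pull out tagged nuclei (INTACT), which enriches nuclei of cells in which this promoter was active. All mice had scopolamine methyl nitrate at 1 mg/kg, which blocks muscarinic receptors outside the brain. The 4 Pilo samples had pilocarpine, a muscarinic agonist, at 340 mg/kg, given 30 min later, and were collected 100 min after that injection, from mice that scored 3 to 5 on the Racine scale. The 4 Mock samples had saline in its place and were not chosen by behaviour. Pilocarpine and seizure therefore cannot be told apart. Whether the samples are separate mice is not stated in the labels, so the p-values measure only the spread between samples, part of which may be technical.

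Each library held between 29356788 and 36161448 exonic counts. A second table gave exonic and intronic counts of the same libraries apart, with 27135364 to 33715773 exonic and 11928054 to 16703475 intronic counts. By the correlation of library deviations over genes, number 2 of either group in one table matched number 3 in the other, and replicate numbers below follow the table that a value comes from. Excitatory markers were high in both groups, with Slc17a7, the vesicular glutamate transporter, at 973 CPM on average in Mock and 890 CPM in Pilo. Of the 6 excitatory markers, 3 were higher past the test (Neurod6, Tbr1 and Nrgn) and 0 lower, and with the replicate number as a block 4 were higher and 1 lower. CPM are counts scaled to a common library size with TMM factors. Markers of other cells were also present. The summed level of 6 inhibitory markers was 117 to 154 CPM in Mock and 153 to 240 CPM in Pilo, and 2 of them, Gad1 and Gad2, were higher past the test. The 6 oligodendrocyte markers summed to 311 to 420 CPM in Mock and 396 to 707 CPM in Pilo, with Mbp higher past the test. Astrocyte markers summed to 174 to 318 against 181 to 412 CPM, microglial markers to 12.3 to 18.8 against 14.2 to 22.5 CPM, and endothelial markers to 12.8 to 23.0 against 13.02 to 50.3 CPM, with 0 of 6 past the test in each list (edgeR, Benjamini-Hochberg, and likewise DESeq2 and limma-voom). At an unadjusted p under 0.05 these were 0, 0 and 1. With the replicate number as a block, 6 inhibitory, 4 oligodendrocyte, 3 astrocyte, 0 microglial and 3 endothelial markers were higher, with 1 endothelial marker lower. Over all 19176 genes tested without the block, 15.6% were higher and 16.2% lower. None of these defining markers had a group mean of 0. Their part in the results below was not tested.

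Promoter windows of 300 bases, from 250 before to 50 after the annotated start (RefSeq, GRCm38.p6), were found for 68 of the 77 members and searched on both strands for 5 motifs. The letters CCGGAAG, bound by ETS factors including GABP, a known regulator of nuclear genes for mitochondrial proteins, occurred in 25 members (36.8%), against 9.93% of all 27025 genes with a window. The letters AAGATGGC, of the zinc finger factor YY1, occurred in 12 members (17.6%), against 3.19% of all genes. The letters GCATGCGC, of NRF1, occurred in 8 members (11.8%), against 3.05%. The cAMP response element TGACGTCA was in 2 members (2.94%, against 2.03% of all genes), and the AP-1 letters TGANTCA were in 3 (4.41%, against 8.97%). All members were tested for expression here, whereas the 27025 genes were not limited to tested ones, so these sets are unlike. None of the letters searched contains another. A match is a description of the letters and not a measured binding site. Stretches just upstream of the start are printed for 6 members, 5′ to 3′ on the gene's own strand, in lower case with any motif match in capitals. Mrpl42 is the member with the largest exonic rise, Mrpl43 a riser with 2 matches to the ETS letters, Mrpl58 a gene whose intronic and exonic changes differ, and Mrps11, Mrpl30 and Mrpl50 start head to head with a neighbour. For Mrpl50 and Mrps11 the bases nearest the start are left out, since the annotation places them in an exon.
Mrpl42, chr10:95501950-95502029, minus strand: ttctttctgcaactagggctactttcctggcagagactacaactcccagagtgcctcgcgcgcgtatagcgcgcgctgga
Mrpl43, chr19:45006443-45006502, minus strand: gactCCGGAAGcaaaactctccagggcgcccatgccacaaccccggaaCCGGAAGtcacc
Mrpl58, chr11:115403692-115403751, plus strand: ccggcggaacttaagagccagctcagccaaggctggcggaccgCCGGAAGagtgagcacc
Mrps11, chr7:78783090-78783118, plus strand: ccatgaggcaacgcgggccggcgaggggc
Mrpl30, chr1:37890412-37890476, plus strand: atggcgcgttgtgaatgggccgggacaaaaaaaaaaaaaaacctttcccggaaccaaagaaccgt
Mrpl50, chr4:49521094-49521175, minus strand: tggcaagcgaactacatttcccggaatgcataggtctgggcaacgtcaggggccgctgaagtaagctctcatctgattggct

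The first comparison asks which members differed in exonic counts between Pilo and Mock. The family did not move as a block: 12 members rose, 20 fell and 45 did not pass the test (edgeR's quasi-likelihood test, Benjamini-Hochberg adjusted over all 19176 genes tested). That is 15.6% higher and 26.0% lower. Among all genes tested 15.6% were higher and 16.2% lower, so the share of rising members equalled the background and the share of falling members lay above it. The median log2 fold change was -0.05 for the members and 0.00497 for all genes, and members ranged from -1.11 to 0.95. In 35 members (45.5%) the 4 Pilo values did not overlap the 4 Mock values, and over all genes tested this was so in 32%. Scaling by library size alone gave 8 higher and 24 lower, and 7 rose without Pilo replicate 2. Here and below, counts under alternative fits are given without the share of all genes under the same fit. They are therefore not set against a background. Summed over all members, the level was 1947 ± 39.9 CPM in Mock and 1898 ± 96.7 CPM in Pilo (SD, n = 4 each), and these groups overlapped. In bulk nuclei, fewer nuclei of a kind and less RNA per nucleus cannot be told apart.

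**Figure D1:**
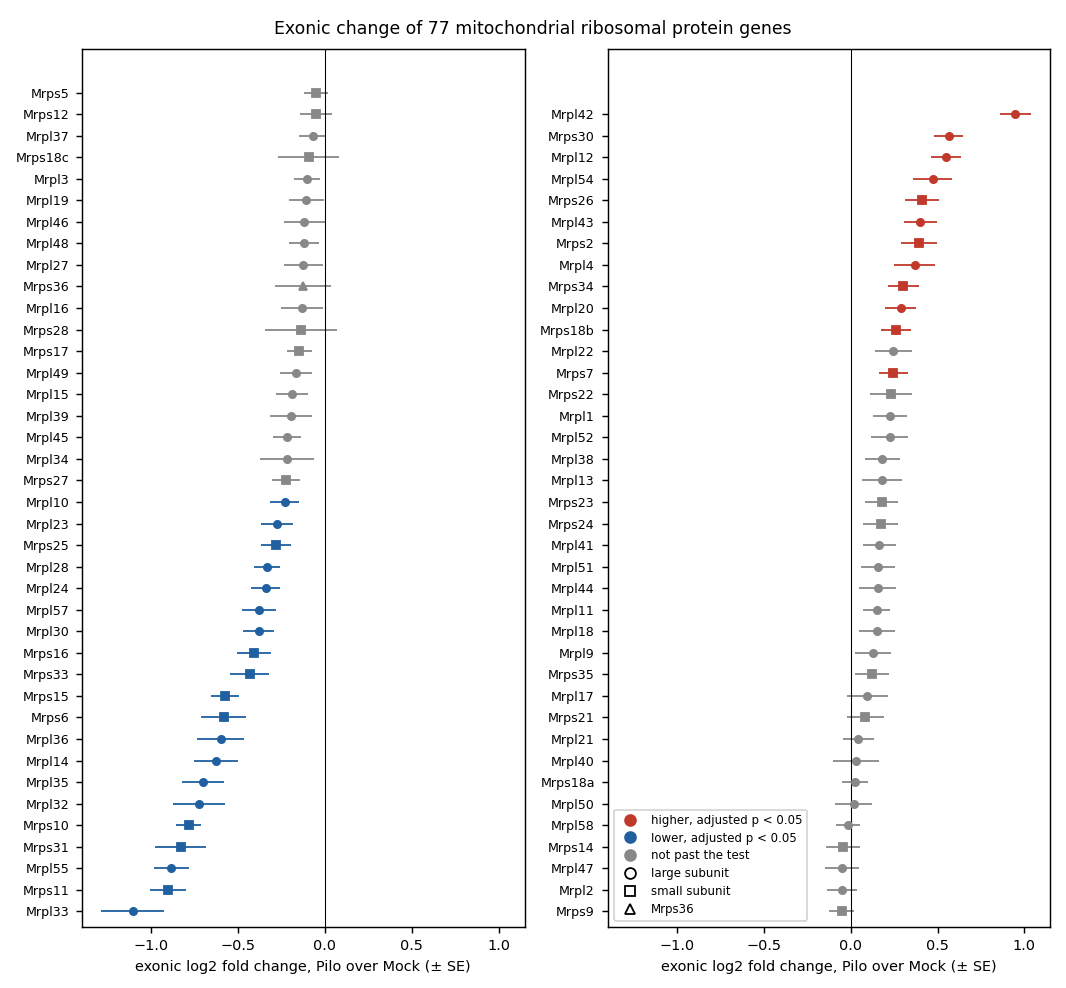
Exonic log2 fold change of Pilo over Mock (horizontal axis, with its SE) for each of the 77 members, ordered from the lowest at bottom left to the highest at top right. Circles are large-subunit genes, squares small-subunit genes and the triangle Mrps36; red marks the 12 that rose, blue the 20 that fell and grey the 45 that did not pass the test.

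Among large-subunit genes 7 of 50 rose and 12 fell, and among small-subunit genes 5 of 26 rose and 8 fell, so both subunits held members of each kind. Of 47 genes with a bacterial counterpart, 6 rose and 15 fell, with a median log2 fold change of -0.09. Of 29 genes found only in mitochondrial ribosomes, 6 rose and 5 fell, with a median of 0.03. The difference between these classes was not tested. Of the 15 bacterial-type genes that fell, 10 belong to the large and 5 to the small subunit.

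The largest rise was that of Mrpl42, a large-subunit protein without a bacterial counterpart (ENSMUSG00000062981, GRCm38 chromosome 10, 95480805 to 95501940). Its exonic level was 20.3, 18.1, 18.9 and 17.3 CPM in Mock replicates 1 to 4 and 38.5, 33.6, 38.6 and 33.2 CPM in the Pilo replicates. All Pilo libraries stood far above all Mock libraries, and the rise was 0.95 on the log2 scale (SE 0.09, adjusted p = 8.41e-06, edgeR). Its promoter window holds 1 match to the YY1 letters, outside the stretch printed above.

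Mrps30, which sits in the large subunit, was at 18.8, 17.1, 19.3 and 16.7 CPM in Mock and at 27.4, 26.9, 27.0 and 25.2 CPM in Pilo. The groups did not overlap, and the log2 fold change was 0.56 (SE 0.08, adjusted p = 0.000231, edgeR). An antisense gene, B430218F22Rik, overlaps Mrps30, and the strand setting of the counting is not given in the sources used here. Mrpl12, a protein of the ribosome's flexible stalk that also binds the mitochondrial RNA polymerase, was at 13.04, 13.2, 13.8 and 15.3 CPM in Mock and at 19.8, 21.6, 19.6 and 20.0 CPM in Pilo. It rose in every Pilo library, by 0.55 on the log2 scale (SE 0.09, adjusted p = 0.000456, edgeR). Mrpl43 was between 8.95 and 10.1 CPM in Mock and between 11.9 and 12.8 CPM in Pilo, which is 0.40 on the log2 scale (SE 0.09). Mrpl43 overlaps Twnk, the mitochondrial DNA helicase gene, on the opposite strand, and Twnk fell by 0.64 on the same scale.

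The other large-subunit genes that rose were Mrpl54 at 0.47, Mrpl4 at 0.37 and Mrpl20 at 0.29 on the log2 scale. Mrpl4, a protein near the exit tunnel of the nascent chain, overlapped between groups, with Pilo replicate 3 at 84.6 CPM below the Mock maximum of 93.0 CPM. In the small subunit, Mrps26 rose by 0.41, Mrps2 by 0.39, Mrps34 by 0.30, Mrps18b by 0.26 and Mrps7 by 0.25. Mrps2 and Mrps18b also overlapped between groups. Pilo replicate 3 was at 23.3 and 24.9 CPM, below the Mock maxima of 24.1 and 25.3 CPM. The smaller rises depended on single libraries and on the scaling. Without Pilo replicate 2 the calls of Mrpl4, Mrpl20, Mrps34, Mrps18b and Mrps7 were lost. Their adjusted p was then 0.0758, 0.0588, 0.0642, 0.0778 and 0.0895 (edgeR). The call of Mrpl4 was also lost without Mock replicate 3, Pilo replicate 1 or Pilo replicate 4 (adjusted p = 0.0595, 0.0683 and 0.0651), and that of Mrpl20 without Mock replicate 4 or Pilo replicate 1 (0.0603 and 0.053). That of Mrps34 was lost without Mock replicate 3 or 4 (adjusted p = 0.0517 and 0.0514, edgeR). Leaving out Mock 2, Mock 4, Pilo 1 or Pilo 4 put Mrps18b at 0.0752, 0.0959, 0.0644 and 0.0822. Leaving out Mock 2, Mock 3, Pilo 1 or Pilo 4 put Mrps7 at 0.0631, 0.078, 0.0659 and 0.0872. With all libraries kept, scaling by library size alone lost Mrpl20, Mrps34, Mrps18b and Mrps7 (adjusted p = 0.0777, 0.0658, 0.112 and 0.109, edgeR). Upper-quartile factors lost Mrpl4, Mrpl20, Mrps18b and Mrps7 (adjusted p = 0.0556, 0.0538, 0.0829 and 0.094, edgeR). Mrpl20, Mrps18b and Mrps7 were also lost with no filter on low counts.

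Mrps18 exists as 3 paralogs that share one bacterial ancestor. Mrps18b was the one past the test, at 25.3, 23.1, 23.8 and 21.6 CPM in Mock and 29.3, 29.4, 24.9 and 28.8 CPM in Pilo, while Mrps18a stood at 0.03 (SE 0.08) and Mrps18c at -0.09 (SE 0.18).

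The largest fall, that of Mrpl33, was larger in size than the largest rise, that of Mrpl42 at 0.95. The next largest fall, -0.91 in Mrps11, was smaller in size than that rise. Mrpl33, a small protein of the large subunit, had 18.5, 13.4, 18.5 and 15.4 CPM in Mock and 5.63, 6.04, 8.96 and 9.91 CPM in Pilo. It fell by 1.11 on the log2 scale (SE 0.18, adjusted p = 0.000667, edgeR), with wide spread in both groups but no overlap. Rbks overlaps it on the opposite strand and Gm43809 on its own strand. Mrps11, part of the platform of the small subunit where messenger RNA leaves the ribosome, had 23.5, 24.0, 24.3 and 20.8 CPM in Mock and 13.1, 11.98, 13.9 and 10.4 CPM in Pilo. Every Pilo library of Mrps11 lay below every Mock library, a change of -0.91 (SE 0.10, adjusted p = 3.9e-05, edgeR). Mrpl55, specific to the mitochondrial large subunit, had 18.7, 20.8, 20.2 and 16.7 CPM in Mock and 11.2, 9.76, 10.7 and 9.71 CPM in Pilo, a change of -0.88 (SE 0.10, adjusted p = 3.72e-05, edgeR).

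Mrps10, a small-subunit head protein with a bacterial counterpart, had the smallest p of all members. Its level was 55.0, 49.6, 50.7 and 51.6 CPM in Mock and 32.2, 29.1, 29.6 and 29.2 CPM in Pilo, so both groups were tight and apart, and the change was -0.78 on the log2 scale (SE 0.07, adjusted p = 8.16e-06, edgeR). Mrps31 fell by 0.83, Mrps15 by 0.58 and Mrps6 by 0.58 in the small subunit. In the large subunit Mrpl32, whose processing by the m-AAA protease is a known step of ribosome assembly, fell by 0.72, Mrpl35 by 0.70, Mrpl14 by 0.63, Mrpl36 by 0.60 and Mrpl28 by 0.33. None of these 8 genes overlapped between the groups. The other 8 that fell were Mrps33, Mrps16, Mrpl30, Mrpl57, Mrpl24, Mrps25, Mrpl23 and Mrpl10, with changes from -0.43 to -0.23. Mrpl10 passed narrowly (adjusted p = 0.0461, edgeR). In the separate exonic counts of the second table Mrpl23 did not pass (adjusted p = 0.099, edgeR). The calls of Mrpl30, Mrps25, Mrpl23 and Mrpl10 were not followed gene by gene through the fits that leave out a library.

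**Figure D2:**
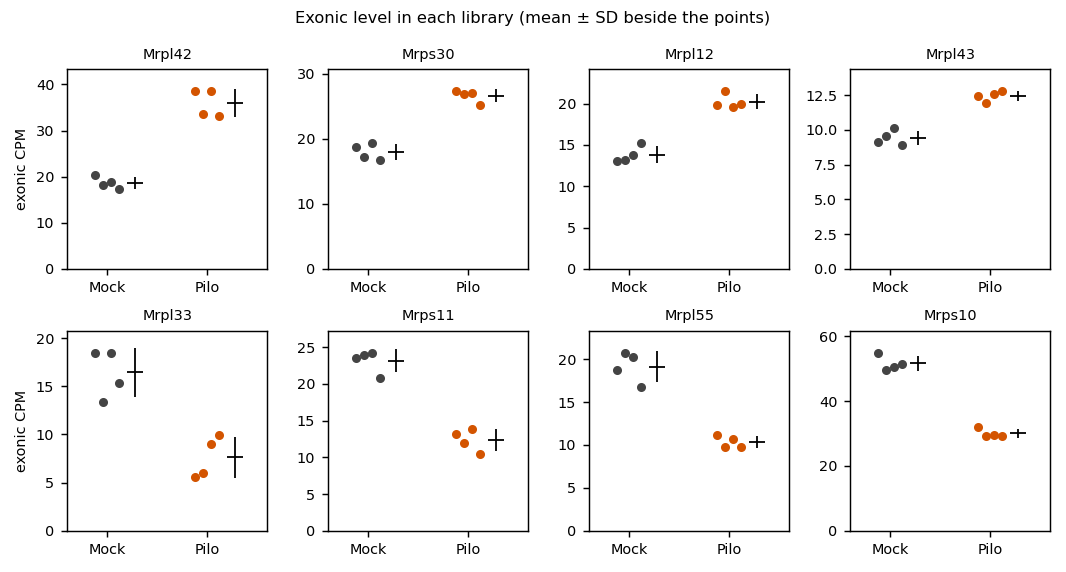
Exonic CPM (vertical axis, from 0) in each of 4 Mock and 4 Pilo libraries, with mean and SD beside the points, for 4 members that rose (top) and 4 that fell (bottom). In each of these 8 genes the Pilo points do not reach the Mock points; Mrps10 went from 51.7 ± 2.33 to 30.0 ± 1.45 CPM.

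Levels were compared between genes only per kilobase of annotated exon. By the mean over all 8 libraries Mrpl41 was the highest member, at 74.0 ± 5.36 CPM per kilobase in Mock and 82.9 ± 10.3 in Pilo. Next came Mrpl4 at 32.2 ± 3.77 and 41.5 ± 6.48 and Mrpl24 at 33.3 ± 2.99 and 26.3 ± 2.07 (SD, n = 4 each). In Pilo alone Mrpl38, at 28.4 ± 3.51, was above Mrpl24. Mrpl4 and Mrpl24 did not differ beyond their spread in Mock, and in Pilo they stood in the order Mrpl4 above Mrpl24, since one rose and the other fell. By the mean over all 8 libraries the lowest were Mrpl13 at 1.13 ± 0.143, Mrpl17 at 1.19 ± 0.145 and Mrpl33 at 2.24 ± 0.342 CPM per kilobase in Mock. In Pilo these were 1.28 ± 0.0811, 1.27 ± 0.0917 and 1.04 ± 0.290. In Mock alone Mrps35, at 1.65 ± 0.181, was below Mrpl33. Exon lengths are the union of all annotated transcripts, which lowers the value of a gene with long alternative ends.

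The second table asks whether the exonic change of a member went with a change of its introns, which are present in RNA not yet spliced. Its exonic columns gave 11 members higher and 21 lower, against 16.5% and 17.5% of all genes, and 73 of 77 members had the same call as in the first table. Scaling by library size alone gave 7 higher and 25 lower, and 7 were higher without Mock replicate 2 or without Pilo replicate 3. For introns 75 members could be tested, since Mrpl43 had 0 intronic counts in every library and Mrpl34 too few. Of these 18 rose and 21 fell, or 24.0% and 28%, against 19.6% and 21.9% of all genes. The median intronic change was -0.01. With scaling by library size alone, which moved the median of all genes to -0.11, the counts were 11 and 26.

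The direction of the intronic change was that of the exonic change in 60 of 75 members (80%), near the 78.3% of all 13047 genes tested in both regions. Both regions fell in 16 members (21.3%, against 13.3% of all genes) and both rose in 7 (9.33%, against 11.9%). In the list of falls, the introns of Mrpl55 changed by -1.26, of Mrps11 by -1.14, of Mrps31 by -1.06, of Mrps10 by -0.83 and of Mrps15 by -0.74. Among the risers, the introns of Mrpl54 changed by 0.89, of Mrpl12 by 0.65, of Mrps30 by 0.62, of Mrpl4 by 0.60 and of Mrps26 by 0.59. The intronic change was larger in size than the exonic one in 54 of 75 members (72%, against 66.5% of all genes). In 10 members (13.3%, against 7.64%) the introns rose past the test while the exons did not pass it, and in 4 (5.33%, against 8.74%) the introns alone fell.

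**Figure D3:**
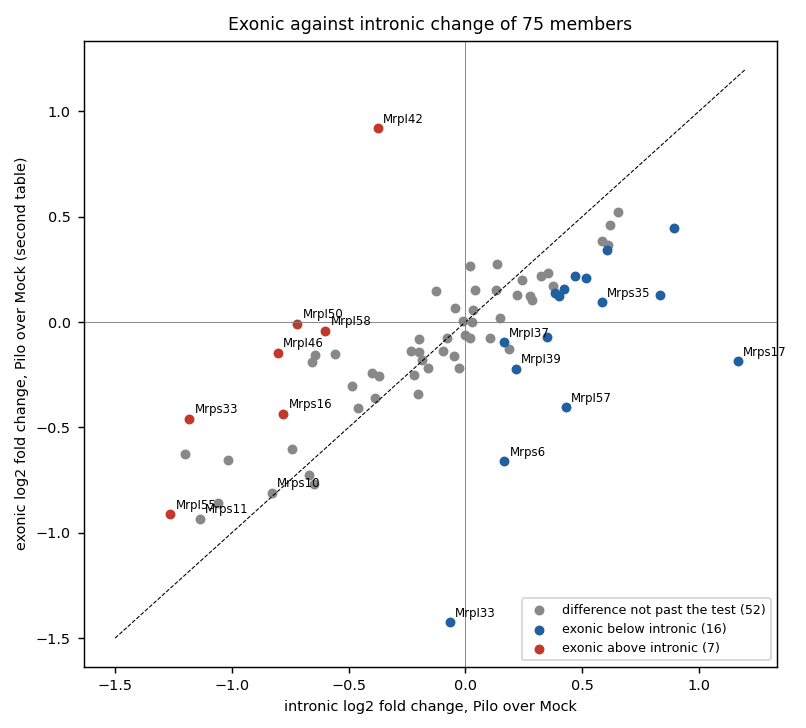
Exonic log2 fold change (vertical axis, second table) against intronic log2 fold change (horizontal axis), Pilo over Mock, for 75 members, with the dashed line where both are equal. Red marks 7 members with exons above introns and blue 16 with exons below introns by the test of the difference; Mrpl42 stands alone at upper left, and Mrps17 lies farthest right.

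The difference itself, exonic minus intronic change, was tested as the interaction of region and treatment. It was above 0 past the test in 7 members and below 0 in 16, or 9.33% and 21.3% of 75. The shares among all 13047 genes tested were 13.5% above and 12.8% below. With the replicate number as a block the counts were 12 and 17, scaling by library size alone gave 11 and 13, and without Mock replicate 1 there were 10 below. Of the 16 with exons below introns, 11 had introns that rose past the test. Of the 7 with exons above introns, 6 had introns that fell. The intronic change is part of the difference, so these 2 counts are partly set by the selection and only describe the members. By origin, 15 of 28 mitochondria-specific members passed the test (6 above and 9 below), and 8 of 46 bacterial-type members did (1 above and 7 below). This contrast between classes was seen in the data and not tested.

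Mrpl42 had the largest positive difference, 1.30 (SE 0.10, adjusted p = 5e-06, edgeR). Its introns had 37.3, 43.8, 41.7 and 41.2 CPM in Mock and 34.7, 29.1, 30.3 and 32.4 CPM in Pilo, a change of -0.38 (SE 0.11), while its exons in the same table rose by 0.92. It was the single member with exons higher and introns lower, each past the test. Mrps33, a mitochondria-specific small-subunit protein, had intronic levels of 33.7, 39.2, 41.3 and 34.0 CPM in Mock and 18.7, 16.6, 16.4 and 13.5 CPM in Pilo. Its introns fell by 1.18 (SE 0.13) and its exons by 0.46, a difference of 0.72 (SE 0.11). Mrpl58, a peptidyl-tRNA hydrolase built into the large subunit, had intronic levels of 108, 112, 122 and 115 CPM in Mock and 85.2, 71.1, 75.1 and 70.1 CPM in Pilo. The intronic groups of Mrpl58 were well apart, at a change of -0.60 (SE 0.10), while the exonic value was -0.04 and overlapped, giving a difference of 0.56 (SE 0.08, adjusted p = 0.00028, edgeR). The antisense gene Ict1os overlaps Mrpl58. Mrpl46 had a difference of 0.66, Mrps16 of 0.35 and Mrpl55 of 0.35. Without Pilo replicate 2 the calls of Mrpl46 and Mrpl55 were lost (adjusted p = 0.063 and 0.0774, edgeR), and without Mock replicate 2 or Pilo replicate 4 that of Mrps16 (0.0507 and 0.0579).

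Mrps17, a small-subunit protein with a bacterial counterpart, showed the reverse arrangement. Its introns had 5.21, 3.91, 5.45 and 5.56 CPM in Mock and 10.5, 10.4, 13.6 and 10.6 CPM in Pilo, a rise of 1.17 (SE 0.17, adjusted p = 0.00011, edgeR). Its exons had 90.2, 86.0, 88.9 and 84.7 CPM in Mock and 85.1, 72.6, 75.4 and 74.3 CPM in Pilo, a value of -0.19 that did not pass the test, although with the replicate block it did (adjusted p = 0.00762, edgeR), as it did without Pilo replicate 1 (0.0134). The difference was -1.35 (SE 0.14, adjusted p = 3.2e-05, edgeR). Mrpl57 had exons lower by 0.41 and introns higher by 0.43, and its intronic call was lost under 9 alternatives, among them the fits without Mock replicates 2, 3 or 4 and Pilo replicates 1, 2 or 3 (highest adjusted p = 0.119, edgeR). Mrps6 had a difference of -0.83 (SE 0.11), with exons at -0.66 and introns at 0.17. Slc5a3, the sodium and inositol cotransporter, lies inside Mrps6 on its strand and rose by 0.57 (SE 0.13) in exonic counts, and whether its reads entered the intronic count of Mrps6 was not tested. Mrps35 differed by -0.48, Mrpl39 by -0.44 and Mrpl37 by -0.26, with intronic changes of 0.58, 0.22 and 0.16. The intronic values of Mrpl39 and Mrpl37 passed with the replicate block and not without it (adjusted p = 0.0165 and 0.0301 with it, edgeR). Mrpl33 also passed, at -1.38 (SE 0.35), on introns of only 0.556 to 1.53 CPM per library.

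**Figure D4:**
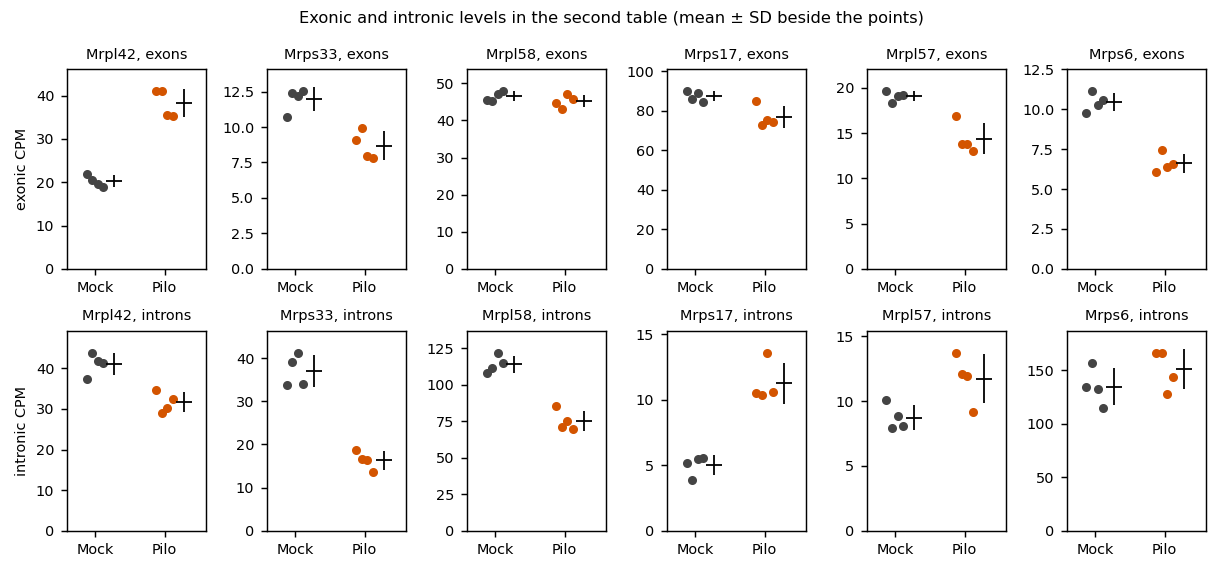
Exonic (top) and intronic (bottom) CPM of 6 members in each library of the second table, vertical axes from 0, with mean and SD beside the points. For Mrpl42, Mrps33 and Mrpl58 the introns are lower in all Pilo libraries, and for Mrps17 they are higher in all of them; the exons of Mrpl42 are higher and those of Mrps33, Mrpl57 and Mrps6 lower.

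Many of these genes start within 1000 bases of another coding gene on the opposite strand, or overlap its start by up to 500 bases. Among 25 such pairs with both genes tested, both changed the same way in 1, in opposite ways in 0, exactly one changed in 15 (60%) and neither in 9 (36%). Over all 922 head-to-head coding pairs with both genes tested, these shares were 9.33% the same way, 6.72% in opposite ways, 46.3% with one changed and 37.6% with neither. The pairs named next were chosen after their values were seen. Mrpl30 and Mitd1, whose starts lie 66 bases apart around the stretch printed above, fell by 0.38 (SE 0.09) and 0.58 (SE 0.14). Mrpl50, a mitochondria-specific large-subunit gene, was at 13.7, 13.4, 14.2 and 12.3 CPM in Mock and 15.9, 12.5, 13.8 and 12.2 CPM in Pilo, a value of 0.02 (SE 0.11) with full overlap. Zfp189, a zinc finger gene 83 bases away, rose by 2.10 (SE 0.10, adjusted p = 1.26e-07, edgeR) in exons and by 2.09 in introns. The introns of Mrpl50 stood at -0.72 (SE 0.28) on 1.11 to 2.69 CPM, short of the threshold (adjusted p = 0.051, edgeR), and its exonic minus intronic difference was 0.73 (SE 0.22, adjusted p = 0.024, edgeR), one of the 7 above 0. Mrps11 and Mrpl46 are both members and overlap at their starts. The exons of Mrps11 fell and those of Mrpl46 stood at -0.12 (SE 0.12), while the introns of both fell, by 1.14 and 0.80. Whether reads of the overlap entered the counts of both was not tested. Mrpl32 fell beside Psma2, a proteasome gene at 0.21 (SE 0.08), and Mrpl49 stood at -0.17 (SE 0.09) beside Fau, a cytosolic ribosomal protein gene that rose by 0.56 (SE 0.08). Mrps5, at -0.05 (SE 0.07), lies beside Zfp661, which fell by 0.89 (SE 0.09).

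**Figure D5:**
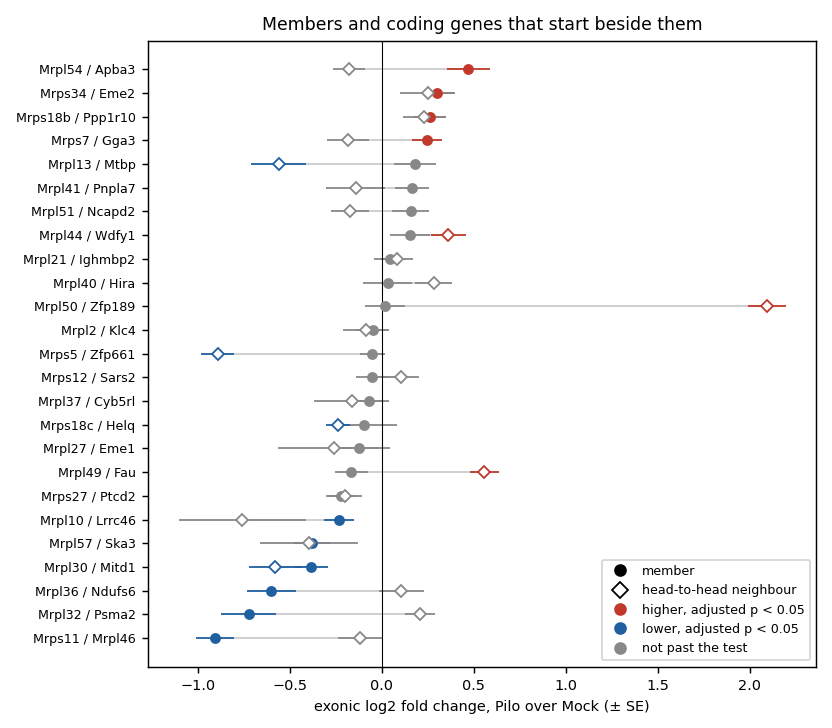
Exonic log2 fold change of Pilo over Mock, with its SE, for 25 members (filled circles) and the coding gene that starts beside each on the other strand (open diamonds). Red marks genes that rose, blue those that fell and grey those that did not pass the test; the pair of Mrpl50 and Zfp189 is farthest apart, and Mrpl30 with Mitd1 is the pair in which both fell.

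In the windows of the members, the ETS letters occurred in 3 of 9 that rose, 4 of 20 that fell and 18 of 39 that did neither. The NRF1 letters were in 1, 3 and 4 of these and the YY1 letters in 2, 4 and 6. Among the factors themselves, Gabpa, the DNA-binding subunit of GABP, fell from between 45.3 and 59.2 CPM to between 30.0 and 42.6 CPM, by 0.59 on the log2 scale (SE 0.12, adjusted p = 0.00234, edgeR). Gabpb2, a partner subunit, fell by 0.42. Ppargc1a, a coactivator of mitochondrial biogenesis, had 26.6, 19.3, 24.3 and 23.2 CPM in Mock and 37.2, 29.3, 35.8 and 33.8 CPM in Pilo and rose by 0.54 (SE 0.11, adjusted p = 0.00183, edgeR). In this list of 10 regulators 3 rose, with Yy1 and Myc beside Ppargc1a, and 2 fell. Of all genes tested, 15.6% rose and 16.2% fell. No link between these changes and those of the members was tested.

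Other genes of mitochondrial translation were read from lists. The shares to set beside the counts of each list below are those of all 19176 genes tested, 15.6% higher and 16.2% lower. Of 5 ribosomal subunits with other symbols, Aurkaip1 rose by 0.28 and Dap3, a GTP-binding small-subunit protein, fell by 0.28. The call of Aurkaip1 was lost under 8 alternatives, among them the fits without Mock replicates 2, 3 or 4 and Pilo replicates 2 or 4 (highest adjusted p = 0.0978, edgeR). Of 15 translation factors and messenger-binding proteins, 2 rose and 5 fell. Oxa1l, which inserts newly made proteins into the inner membrane and holds the ribosome there, rose by 0.56 (SE 0.08), Slirp, which stabilises mitochondrial messages, fell by 1.06 (SE 0.12) and the release factor Mtrf1l fell by 0.54. Lrpprc, the known partner of Slirp, rose by 0.25 (SE 0.08). Of 25 assembly and rRNA modification factors, 2 rose and 10 fell. Malsu1, an assembly factor of the large subunit, rose from between 9.64 and 11.2 CPM to between 16.02 and 17.2 CPM, by 0.66 (SE 0.09), and the assembly GTPases Mtg1 and Mtg2 fell by 0.35 and 0.36.

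Of 17 mitochondrial aminoacyl-tRNA synthetases, which charge transfer RNAs in the organelle, 1 rose and 6 fell. Fars2 rose by 0.66 (SE 0.10), and Pars2 fell by 0.71. Of 8 genes of mitochondrial transcription and DNA maintenance, Tfam rose by 0.28, while Polg2 fell by 0.93, Tefm by 0.67 and Twnk by 0.64. Tfam packages mitochondrial DNA and is a factor of its transcription. Median log2 fold changes were -0.10 for the other ribosomal subunits, -0.19 for translation factors, -0.11 for assembly factors, -0.20 for synthetases, -0.16 for transcription genes and 0.01 for regulators, beside 0.00497 for all genes. Of 15 genes encoded in mitochondrial DNA, 9 could be tested and 0 passed by edgeR, DESeq2 or limma-voom, nor did any have an unadjusted p under 0.05, while with the replicate block 6 were higher. Their summed level varied from 162 to 440 CPM in Mock and from 166 to 518 CPM in Pilo.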

How the data were processed

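Both deposited tables hold raw read counts per gene: exonic counts by Ensembl gene, and exonic and intronic counts apart by Entrez gene. The submitters' processing notes name HTSeq 0.11.2, STAR 2.7.1a, Trimmomatic 0.39, edgeR and the mm10 build. Neither the annotation nor the strand setting is given in the sources used here, so reads of overlapping genes may be shared. Symbols and positions were read from GENCODE vM21 and RefSeq on GRCm38.

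Counts were tested with edgeR 4.0.16 (R 4.3.3): quasi-likelihood F-test (robust), TMM, filterByExpr with a minimum count of 10, Benjamini-Hochberg over all genes at 0.05, treatment as the only term. The SE comes from the coefficient and F. The difference between exonic and intronic change is the interaction of region with treatment, with a term per sample. Scripts were tested on simulated data. DESeq2 1.42.0 and limma 3.58.1 (voom) were alternatives.

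Deviations from group means correlated between same-numbered libraries of the exonic table (Pearson r 0.372, 0.380, 0.401 and 0.377, with a limit of 0.1). The labels state no pairing, and what the same-numbered libraries share is not known. Numbers 2 and 3 of both groups are exchanged between the tables, so which title they belong to is unsettled. The planned fit leaves the number out, so its p-values ignore this correlation, and a block by number is given as an alternative. Between replicates of a group, chi-square per degree of freedom was 10.2 to 34.2, well over counting noise.

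Members and gene lists were chosen with earlier results of these data known. Named members are the 12 of smallest p per direction in exons, 6 per direction in exons against introns, the 3 highest and 3 lowest per kilobase and the Mrps18 genes, and in each list up to 3 of smallest p. Others were named after their values were seen. A gene of the rule is not reported here by name. Genes whose expression followed the members' mean most closely are given in the closing section.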

Additional observations from a re-analysis of the deposited data

Results flagged for a closer look

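Over the named members, in 9 of 102 groups of 4 libraries (8.82%) one library stood far from the other 3, where chance gives about 5%. In the exonic table these were Mrps18b in Pilo replicate 3, at 24.9 CPM against 28.8 to 29.4, Mrps10 in Pilo replicate 1, at 32.2 against 29.1 to 29.6, and Mrps33 in Mock replicate 1, at 9.85 against 11.3 to 11.5. Mrpl37 in Pilo replicate 3 was at 78.2 CPM against 92.2 to 93.3, Mrpl41 in Mock replicate 3 at 58.6 against 67.4 to 68.6, and Mrpl17 in Pilo replicate 1 at 10.7 against 9.20 to 9.44. Among introns, Mrpl46 in Pilo replicate 1 was at 13.5 CPM against 8.38 to 9.17, Mrps17 in Pilo replicate 3 at 13.6 against 10.4 to 10.6, and Mrpl37 in Pilo replicate 2 at 145 against 164 to 167. Pilo replicate 3 of the first table and Pilo replicate 2 of the second are the same library by the matching of the tables, and it was the low one for Mrpl37 in both regions. Without Pilo replicate 3 of the first table, Mrpl41 passed the exonic test (adjusted p = 0.0264, edgeR), and with all 8 libraries and the replicate block it passed too (0.0245).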

How the results depend on the processing

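With 4 libraries a group, small changes rest on single libraries and on the scaling. Of 1388 values of named genes under the alternatives, 1323 kept their side of the threshold, 52 fell short of it and 13 newly passed. Among values that passed in the planned or the alternative fit, 0 reversed direction. For values that passed in neither, a change of direction was not counted. Leaving out one library at a time gave 7 to 15 members higher in exons (7 without Pilo replicate 2), 7 to 12 in the exonic columns of the second table, and 10 to 17 with exons below introns. Scaling by library size alone gave 7 members higher in the second table's exons, 11 higher in introns and 11 with exons above introns. Upper-quartile factors gave 7 higher in the second table's exons. The replicate block, with the numbers taken as pairs, gave 12 members with exons above introns, and moved no other count of members past 1.5 times. It gave 17 higher and 24 lower in exons. The shares of all genes under these fits are not given here, and the cause of these shifts was not tested. DESeq2 gave 12 higher and 21 lower in exons, and limma-voom 12 and 20.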

Other observations

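The mean log2 CPM of the 77 members was 4.20, 4.19, 4.19 and 4.17 in Mock replicates 1 to 4 and 4.20, 4.11, 4.08 and 4.05 in the Pilo replicates, so Pilo replicate 1 lay within the Mock range and the other 3 below it. The genes outside the family whose level followed this mean most closely over the 8 libraries were Arhgef37 (Pearson r = 0.986), Ddx59 (0.985), Coa4 (0.983), A830082N09Rik (0.981) and Ercc6 (0.980). These are the highest among all genes tested, over 8 libraries that share their scaling, given as a description. Of these 5, A830082N09Rik and Ercc6 passed the exonic test, at -0.35 (SE 0.11) and -0.24 (SE 0.09).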
